A study of Homo sapiens with 6 samples.

Results

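The genes described here are 10 regulators of apoptosis of the BCL2 family, BCL2, BCL2L1, MCL1, BAX, BAK1, BID, BIK, BBC3, PMAIP1 and BCL2L11, taken by symbol from the 58233 rows of each deposited table that carry an Ensembl gene identifier. Every one of the 10 was found as a single row. The study compared cells of T24, a long-established human transitional cell carcinoma line of the urinary bladder, that stably carry the constitutively active RhoC mutant Q63E (3 libraries) with T24 cells that stably carry the vector, VEC (3 libraries). RhoC is a small GTPase that acts on the actin cytoskeleton. Both groups were made with lentivirus and selected with puromycin, and the sources do not say whether the lines were pools or clones, or whether the 3 libraries of a group came from separate cultures. If they did not, the p-values below measure only technical spread.

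Proteins of the BCL2 family decide whether the outer mitochondrial membrane is opened during the intrinsic pathway of apoptosis. BAX and BAK1 form the pores, BCL2, BCL2L1 (BCL-XL) and MCL1 hold them in check, and the BH3-only proteins bind the protective members or activate the pore formers. Once cytochrome c leaves the mitochondria, it assembles with APAF1 into the apoptosome, which activates caspase 9. The values below are RNA levels. They do not report on protein, and they do not separate splice forms, which matters because BCL2L1 and MCL1 each have a short form that promotes death.

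RHOC, the gene that was introduced, had values of 1770, 1726 and 1744 in the Q63E libraries and of 232, 218 and 232 in the VEC libraries, and introduced and native RHOC share this row. Summed values per library ran from 726929 to 741778 in Q63E and from 746175 to 769026 in VEC. Neither the headers nor the labels name the unit, and the values are taken here as FPKM, fragments scaled to transcript length and library size, so that depth is unknown. Of 5 epithelial markers, the keratins KRT7, KRT8 and KRT18 carried nearly the whole sum, 3186 to 3294 in Q63E and 2110 to 2149 in VEC, while CDH1 was listed at 0 in all 6 libraries. Of 7 urothelial markers GATA3 was the only one with a mean of at least 1, and the list summed to 0.44 to 1.17 in Q63E and 0.81 to 3.93 in VEC. Leukocyte markers summed to 9.5 to 11.1 in Q63E and 17.7 to 19.6 in VEC, nearly all of it CD68, with PTPRC and CD3E listed at 0. Fibroblast markers summed to 2.44 to 3.70 in Q63E and 1.90 to 2.33 in VEC, and endothelial markers stayed at or below 0.24 in every library.

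Among these 10 members the largest change was in PMAIP1. PMAIP1 encodes NOXA, a BH3-only protein that binds mainly MCL1, and its RNA in Q63E cells was at 0.491 of the VEC level. In such bulk RNA, fewer cells with a transcript and less of it per cell cannot be told apart. BAK1, a pore former, fell more modestly, to 0.788 of the VEC level. The other 8 members did not pass the test. PMAIP1 and BAK1 are thus the members called lower, 2 of 10, where 14.0% of all 13346 genes tested were called lower. Of the 10, 0 were called higher, where 11.3% of all genes were. Calls are those of limma on log2(value + 1), two-sided, with p-values adjusted by the Benjamini-Hochberg method across the whole set of tested genes, and a gene passed below 0.05. At an unadjusted limma p below 0.05, 4 members were lower (PMAIP1, BAK1, MCL1 and BBC3), where 20.1% of all genes tested were, and 1 was higher (BCL2L1), where 18.1% were.

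**Figure D1:**
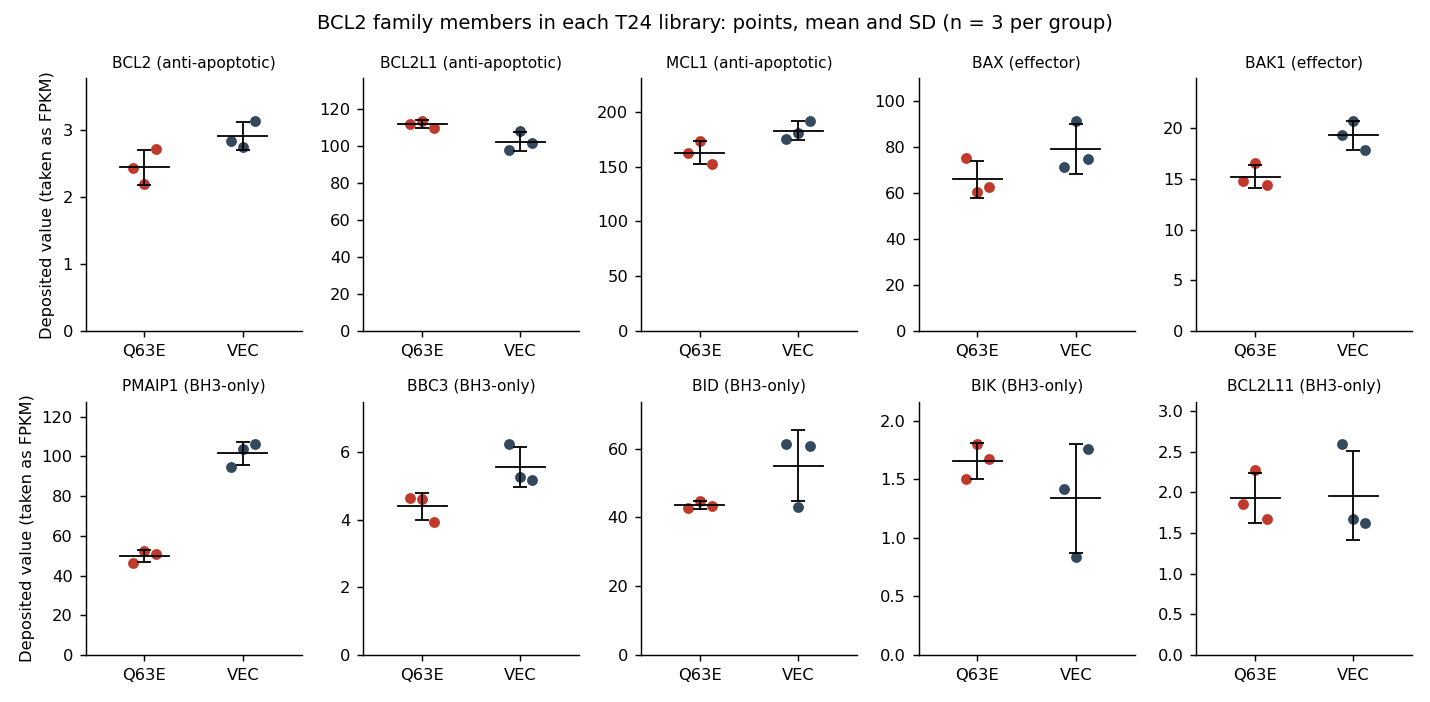
Deposited value (taken as FPKM, linear axis from 0) of each member in the 3 Q63E and the 3 VEC libraries, with the group mean as a horizontal line and the SD as error bar. PMAIP1 lay between 46.3 and 52.5 in Q63E and between 94.8 and 106 in VEC, the widest separation among the 10 genes.

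The promoters of these fallen members are shown so that the stretch just upstream of each gene can be read beside its values. The sequences are from RefSeq on GRCh38.p14, are written 5′ to 3′ on the strand of the gene, and end at the last base before the gene as annotated in GENCODE. Capitals mark matches to any motif searched. The PMAIP1 stretch is the plus strand of chr18:59899746-59899947 and the BAK1 stretch the minus strand of chr6:33580294-33580526.
PMAIP1: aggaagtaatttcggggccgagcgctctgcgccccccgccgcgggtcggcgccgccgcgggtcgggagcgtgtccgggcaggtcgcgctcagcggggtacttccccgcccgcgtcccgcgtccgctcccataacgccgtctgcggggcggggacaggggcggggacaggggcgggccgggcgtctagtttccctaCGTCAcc
BAK1: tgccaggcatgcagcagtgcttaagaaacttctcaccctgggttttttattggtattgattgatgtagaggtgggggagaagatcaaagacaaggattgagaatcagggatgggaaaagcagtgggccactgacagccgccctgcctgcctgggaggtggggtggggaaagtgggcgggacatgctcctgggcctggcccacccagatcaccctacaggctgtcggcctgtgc

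The motifs were searched on both strands of the 250 bases before the RefSeq start. They were the cyclic AMP response element half-site TGACG, the AP-1 site TGANTCA, the NF-kB site, the CArG box, the E2F sites TTTCCCGC and TTTGGCGC, and the hypoxia core ACGTG. Some of these can overlap one another. The RefSeq table held 8 of the 10 members, all except MCL1 and BIK. PMAIP1 had 1 match, to TGACG on the other strand, a half-site held by 21.7% of the 27305 promoters searched and by 4 of the 8 members (BCL2, BCL2L1, BAX and PMAIP1). BAK1 had 0 matches, which says only that these letters are not in this window. The matches are letters in a window and not evidence of binding.

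Among the 10 members, levels spanned from MCL1 at the top to BIK and BCL2L11 near the lower limit of the test. On the per-length scale of the values, MCL1 averaged 163 ± 10.2 in Q63E and 183 ± 8.66 in VEC (SD, n = 3 each, as in all values with ± here). In Q63E it was followed by BCL2L1, BAX, PMAIP1 and BID, in that order. In VEC the next members were BCL2L1 and PMAIP1, at 102 ± 5.35 and 102 ± 5.94, which did not differ beyond their spread, and then BAX and BID. BAX lay above PMAIP1 in all 3 Q63E libraries but below it in all 3 VEC libraries. BAK1, BBC3 and BCL2 came next in both groups. BCL2L11 and BIK, which closed the order, did not differ beyond their spread in either group.

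Among the protective members, MCL1 and BCL2L1 differed slightly and in opposite directions, and neither passed. MCL1 (ENSG00000143384, chromosome 1 from 150574551 to 150579738, minus strand), a short-lived protein that restrains BAK1, had values of 162, 173 and 153 in Q63E and 175, 181 and 192 in VEC. All 3 Q63E libraries lay below all 3 VEC libraries, though the closest pair nearly met. The log2 fold change was -0.17 (95% interval -0.31 to -0.03, adjusted p = 0.0811). BCL2L1 (ENSG00000171552, chromosome 20 from 31664452 to 31723989, minus strand), whose long form BCL-XL protects against BAX and BAK1, had values of 112, 114 and 110 in Q63E and 97.7, 108 and 102 in VEC. Here the Q63E libraries were all above the VEC libraries, at a log2 fold change of 0.13 (95% interval 0.01 to 0.24, adjusted p = 0.0955). BCL2L1 passed with quantile normalization (adjusted p = 0.0391), without VEC replicate 2 (0.0431) and after subtraction of its neighbours on the chromosome (0.0449). BCL2 (ENSG00000171791, chromosome 18 from 63123346 to 63320128, minus strand), the founding member of the family, was low throughout, at 2.44, 2.19 and 2.71 in Q63E and 2.84, 2.75 and 3.14 in VEC. These groups did not overlap either, but they were nearly touching, and the log2 fold change of -0.18 had a 95% interval of -0.47 to 0.10 (adjusted p = 0.308).

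The pore formers were both lower on average in Q63E, and BAK1 passed. BAK1 (ENSG00000030110, chromosome 6 from 33572547 to 33580293, minus strand), which sits in the outer mitochondrial membrane of living cells, had values of 14.8, 16.5 and 14.4 in Q63E and 19.3, 20.7 and 17.9 in VEC. The groups did not overlap, and the log2 fold change was -0.32 (SE 0.080, adjusted p = 0.0286). The call was lost without Q63E replicate 1 (adjusted p = 0.0889) or 3 (0.0887), without VEC replicate 1 (0.0767) or 2 (0.0811), and with no filter on low values (0.0584). BAX (ENSG00000087088, chromosome 19 from 48954815 to 48961798, plus strand), which moves from the cytosol to mitochondria on activation, had values of 75.2, 60.4 and 62.4 in Q63E and 71.2, 91.4 and 74.6 in VEC. The first Q63E library lay above 2 of the VEC libraries, so the groups overlapped, and the log2 fold change of -0.26 did not pass (95% interval -0.54 to 0.03, adjusted p = 0.167).

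Of the 5 BH3-only members, PMAIP1 stood alone in passing. PMAIP1 (ENSG00000141682, chromosome 18 from 59899948 to 59904306, plus strand) had values of 46.3, 52.5 and 50.7 in Q63E and 94.8, 104 and 106 in VEC. The highest Q63E library was far below the lowest VEC library. The log2 fold change was -1.01 (SE 0.064, 95% interval -1.17 to -0.86, adjusted p = 0.000227), and by p-value the gene ranked 114 of the 13346 tested. It passed under all 16 alternative fits, with log2 fold changes between -1.08 and -0.96.

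BBC3 (ENSG00000105327, chromosome 19 from 47220822 to 47232766, minus strand) encodes PUMA, which binds all of the protective members. Its values were 4.65, 4.60 and 3.93 in Q63E and 6.23, 5.27 and 5.17 in VEC. The Q63E libraries were all below the VEC libraries, with a log2 fold change of -0.28 (95% interval -0.54 to -0.02) that did not pass (adjusted p = 0.109). BID (ENSG00000015475, chromosome 22 from 17734138 to 17774770, minus strand), which caspase 8 cleaves to carry a death receptor signal to mitochondria, had values of 42.6, 44.9 and 43.2 in Q63E and 61.3, 43.0 and 60.7 in VEC. VEC replicate 2 lay within the Q63E range and the other 2 VEC libraries lay well above it. With all libraries the log2 fold change was -0.31 (adjusted p = 0.141), and without VEC replicate 2 it was -0.48 (adjusted p = 0.00336), so the call depends on that library.

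BIK (ENSG00000100290, chromosome 22 from 43110748 to 43129712, plus strand), a BH3-only protein of the endoplasmic reticulum, was near the lower limit of the test. It had values of 1.5, 1.8 and 1.67 in Q63E and 1.42, 0.84 and 1.76 in VEC, which overlapped (log2 fold change 0.20, 95% interval -0.26 to 0.66, adjusted p = 0.483). BCL2L11 (ENSG00000153094, chromosome 2 from 111119378 to 111168447, plus strand) encodes BIM, a potent activator of BAX and BAK1. It had values of 1.86, 2.27 and 1.67 in Q63E and 2.59, 1.67 and 1.62 in VEC, and its log2 fold change of -0.0027 had a 95% interval of -0.43 to 0.42 (adjusted p = 0.994). Lying inside the long noncoding gene MIR4435-2HG on the other strand, which averaged 66.0 in Q63E and 71.8 in VEC, BCL2L11 could share reads with it, since the sources do not state whether counting used the strand.

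Across the 10 members, 5 had non-overlapping libraries with Q63E lower (BCL2, MCL1, BAK1, BBC3 and PMAIP1), against 22.8% of all genes tested. In the other direction there was 1, BCL2L1, against 21.1% of all genes. The median log2 fold change of the 10 was -0.22, and that of all genes tested was -0.0023. By role, the BH3-only members summed to 96.9, 106 and 101 in Q63E and to 166, 154 and 175 in VEC, and PMAIP1 was the largest part of every sum. Summed pore formers were 90.0, 76.9 and 76.8 in Q63E and 90.5, 112 and 92.4 in VEC. The protective members summed to 277, 289 and 265 in Q63E and to 275, 292 and 297 in VEC, so their groups overlapped.

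**Figure D2:**
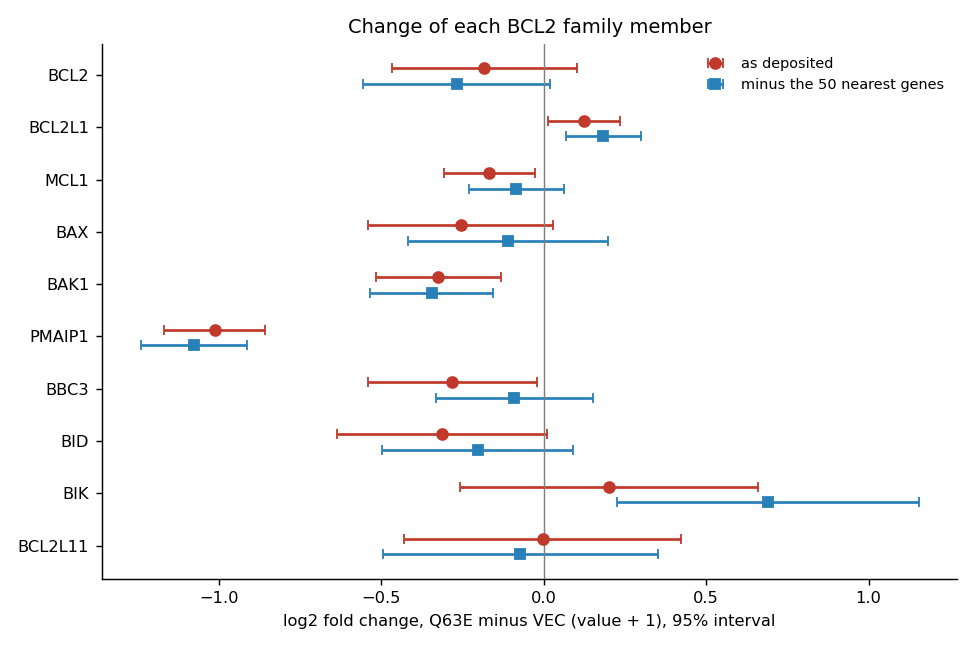
Log2 fold change of each member (Q63E minus VEC, on value + 1) with its 95% interval, as deposited (circles) and after subtraction of the median shift of the 50 nearest tested genes (squares). PMAIP1 is at -1.01 and -1.08, while BIK is at 0.20 and 0.69.

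The members lie on 7 chromosomes, and some of them sit in stretches where most neighbours moved one way. Each member was therefore also set against the 50 nearest tested genes of its chromosome. Around PMAIP1 22 of the 50 neighbours had a log2 fold change below 0 and their median shift was 0.06. With that subtracted PMAIP1 stood at -1.08 (adjusted p = 0.000287). These 50 neighbours spanned 23.5 Mb. The closest tested genes on either side, at -0.20 and 0.23 Mb from the start of PMAIP1, had log2 fold changes of -0.36 and -1.51. BCL2, which lies 3.22 Mb away on chromosome 18, did not pass before or after subtraction. The neighbours of BAK1 spanned 3.18 Mb and had a median shift of 0.02, with 23 of 50 below 0. BAK1 stood at -0.34 after subtraction (adjusted p = 0.0299). MCL1, at -0.17 before subtraction, had neighbours with a median shift of -0.08 and stood at -0.08 after it (adjusted p = 0.399).

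On chromosome 19 BAX and BBC3 are 1.72 Mb apart, and around each of them 41 of 50 neighbours had a log2 fold change below 0. Many of these neighbours are shared by BAX and BBC3, so the counts are not separate observations. Of all 13346 genes tested, 6727 were below 0. The neighbours of BAX and BBC3 had median shifts of -0.15 and -0.19. After subtraction BAX had a log2 fold change of -0.11 (adjusted p = 0.598) and BBC3 of -0.09 (adjusted p = 0.584). BIK was the reverse case. Of its 50 neighbours 40 were below 0 and 32 passed the test as lower, with a median shift of -0.49, whereas BIK itself was at 0.20. Relative to these neighbours BIK was higher by 0.69 (95% interval 0.22 to 1.15), with an adjusted p of 0.0554. At values as low as those of BIK the added 1 shrinks a fold, so subtraction of the full shift can overstate this difference. With 1 library left out, the log2 fold change of BIK itself ran from 0.04 to 0.33. BID, 25.34 Mb from BIK on the same chromosome, had neighbours with a median shift of -0.11 and stood at -0.20 after subtraction (adjusted p = 0.312).

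**Figure D3:**
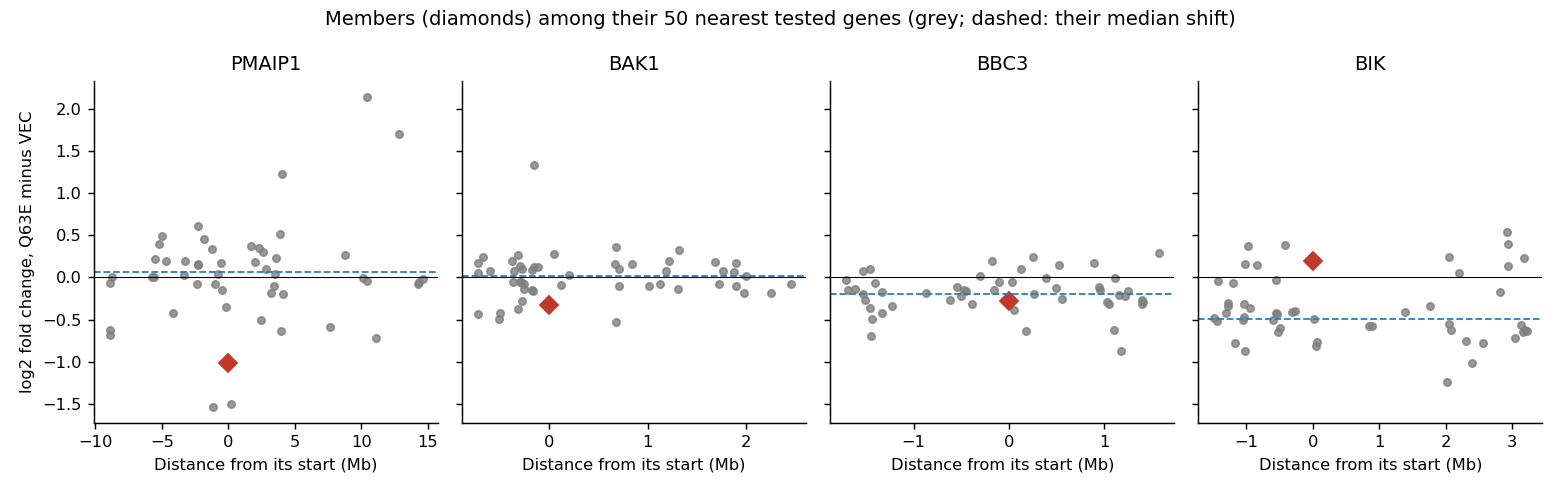
Log2 fold change (Q63E minus VEC) of PMAIP1, BAK1, BBC3 and BIK (diamonds) and of their 50 nearest tested genes (grey points), by distance from the member's start in Mb, with the neighbours' median shift as a dashed line. PMAIP1 and BAK1 lie among neighbours centred near 0, and BIK lies above neighbours centred at -0.49.

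Ratios between members were taken within each library, so that a shared scaling of the library cancels. The protective MCL1 stood at 3.51, 3.30 and 3.01 times the value of its partner PMAIP1 in Q63E, and at 1.84, 1.75 and 1.81 times in VEC. This ratio was 1.81-fold higher in Q63E with no overlap, and its exact two-sided permutation p of 0.1 is the smallest that 3 against 3 allow (0.2 adjusted over the 8 ratios). The ratio of BCL2L1 to BAK1 was 7.59, 6.89 and 7.64 in Q63E and 5.07, 5.22 and 5.69 in VEC. That of BCL2L1 to BAX was 1.49, 1.89 and 1.76 in Q63E and 1.37, 1.18 and 1.36 in VEC, and that of BCL2L1 to BID was 2.63, 2.54 and 2.54 in Q63E and 1.59, 2.52 and 1.67 in VEC. These ratios did not overlap between the groups either, with the same exact permutation p of 0.1, although for BCL2L1 to BID VEC replicate 2 lay just under the Q63E libraries. None of the 8 ratios can pass a threshold of 0.05 in this design. The ratios reuse the member values above and share members with one another, so they are not independent results.

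The classical ratio of BCL2 to BAX averaged 0.037 ± 0.0056 in Q63E and 0.037 ± 0.0064 in VEC, and the groups overlapped fully (exact permutation p = 1). MCL1 over BAX overlapped too (2.49 ± 0.356 in Q63E and 2.34 ± 0.314 in VEC, exact permutation p = 0.7), as did MCL1 over BAK1 (10.7 ± 0.275 in Q63E and 9.52 ± 1.08 in VEC, exact permutation p = 0.3). The sum of BCL2, BCL2L1 and MCL1 over the sum of BAX and BAK1 was 3.08, 3.76 and 3.45 in Q63E and 3.04, 2.60 and 3.21 in VEC. This ratio also overlapped between the groups (exact permutation p = 0.2).

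**Figure D4:**
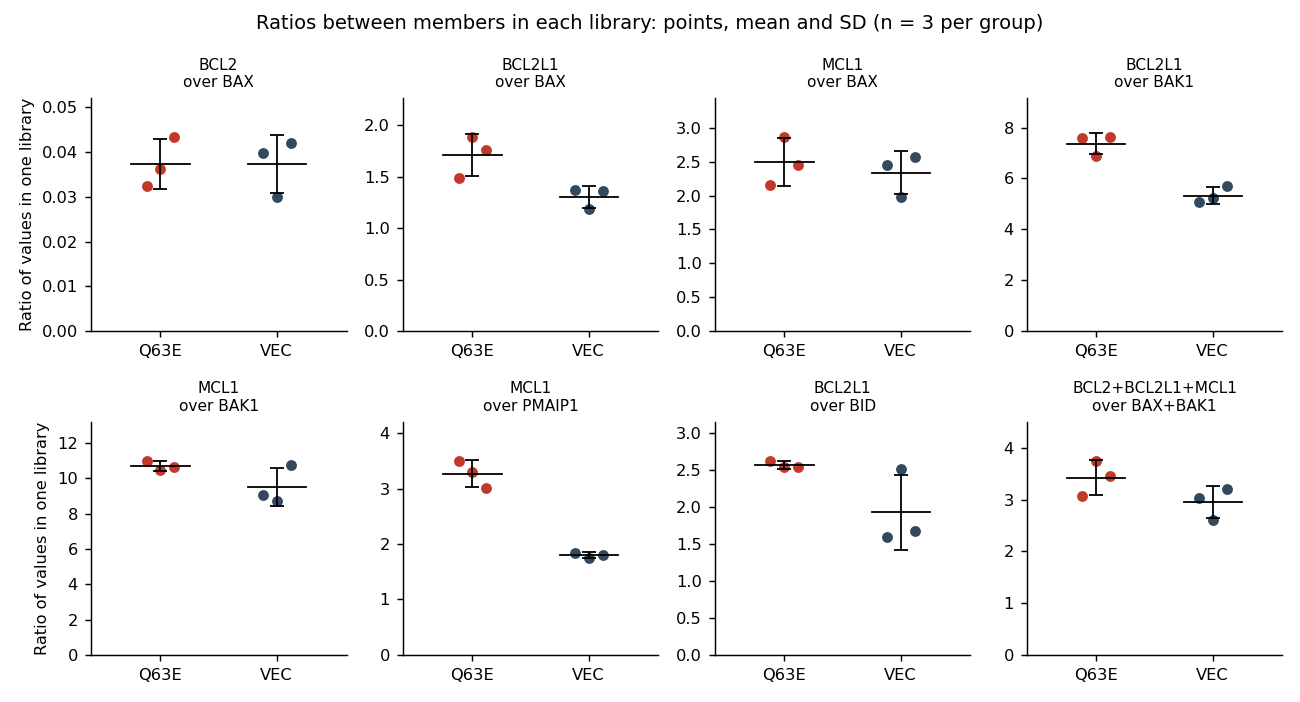
Ratio of the values of 2 members, or of 2 sums of members, within each of the 3 Q63E and 3 VEC libraries (linear axes from 0), with mean and SD. MCL1 over PMAIP1 is 3.01 to 3.51 in Q63E and 1.75 to 1.84 in VEC, while BCL2 over BAX overlaps between the groups.

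Relatives of the 10 members moved in both directions. Of 13 further members of the family, 8 had a mean of at least 1 and were tested. Of these 3 rose and 2 fell, where 11.3% of all genes tested were called higher and 14.0% lower. Their median log2 fold change was 0.03. BCL2A1, a protective member known as a target of NF-kB, had values of 0.59, 0.71 and 0.24 in Q63E and 3.85, 3 and 2.74 in VEC. It is counted among the 2 that fell. It reached the minimum mean of 1 only through its VEC values, so its test is not given. BOK, a BAX-like protein, rose to 43.5, 43.4 and 44.8 in Q63E, against 30.5, 30.8 and 30.7 in VEC (log2 fold change 0.50, adjusted p = 0.000416), with its antisense gene BOK-AS1 at means of 1.25 in Q63E and 0.337 in VEC. The libraries of each group lay within a narrow band for BOK, and BOK passed under all 16 alternative fits.

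BNIP3, a mitophagy receptor known to be induced in hypoxia, had values of 215, 249 and 241 in Q63E and 170, 160 and 166 in VEC (log2 fold change 0.50, adjusted p = 0.00206). Its close relative BNIP3L, named here after its values were seen, averaged 108 ± 3.02 in Q63E and 94.8 ± 3.88 in VEC (log2 fold change 0.19, adjusted p = 0.0231). BNIP3L rose although its 50 neighbours had a median shift of -0.39, and relative to them it was higher by 0.58 on the log2 scale (adjusted p = 0.000848). The call on its values as deposited was lost in 5 of the 16 alternative fits. BCL2L13 fell to 24.5 ± 2.1 in Q63E, against 33.6 ± 1.3 in VEC (adjusted p = 0.00577). BCL2L2, BCL2L12 and BAD did not pass. The 5 untested genes were BCL2L10, BCL2L14, BCL2L15, BMF and HRK. Among these HRK, a BH3-only gene known mainly from neurons, had values of 0.64, 0.26 and 0.52 in Q63E and 0, 0.03 and 0.05 in VEC. HRK would enter a test with a lower minimum only through its Q63E values, so no test of it is given.

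Downstream of the mitochondria, all 16 caspase and apoptosome genes were tested. Of these 1 rose and 1 fell, where 11.3% of all genes tested were called higher and 14.0% lower. At an unadjusted limma p below 0.05 the counts were 3 and 2, where 18.1% and 20.1% of all genes were. The median log2 fold change was -0.09. ENDOG, a mitochondrial nuclease, fell to 13 ± 0.337 in Q63E, against 18.5 ± 0.662 in VEC (log2 fold change -0.48, adjusted p = 0.00173). CASP2, an initiator caspase, rose to 18.3 ± 0.624 in Q63E, against 15.3 ± 0.878 in VEC (log2 fold change 0.24, adjusted p = 0.0330), a call that 8 of the 16 alternative fits did not keep. Neither APAF1, CYCS nor CASP9 passed. Of 7 tested caspase inhibitors 0 rose and 2 fell in limma, where 11.3% of all genes tested were called higher and 14.0% lower. At an unadjusted limma p below 0.05 the counts were 0 and 3, where 18.1% and 20.1% of all genes were. The median of the caspase inhibitors was -0.15. BIRC3, an NF-kB target that restrains cell death at TNF receptors, averaged 5.02 ± 0.503 in Q63E and 7.49 ± 0.689 in VEC (log2 fold change -0.49, adjusted p = 0.0158). CFLAR, the inhibitor of caspase 8 known as FLIP, averaged 21.6 ± 0.452 in Q63E and 24.8 ± 1.04 in VEC (adjusted p = 0.0361). The calls on BIRC3 and CFLAR were lost in 4 and 9 of the 16 alternative fits.

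Of 7 genes of the mitochondrial membrane that work with the family, 0 rose and 2 fell in limma. Of all genes tested, 11.3% were called higher and 14.0% lower. At an unadjusted limma p below 0.05 the counts were 1 and 2, where 18.1% and 20.1% of all genes were. The median of the 7 was -0.04. VDAC2, a channel that binds BAK1 and BAX at the outer membrane, averaged 172 ± 0.268 in Q63E and 192 ± 8.08 in VEC (log2 fold change -0.16, adjusted p = 0.0284), and 6 of the 16 alternative fits did not keep the call. VDAC3 averaged 92.5 ± 3.21 in Q63E and 110 ± 4.41 in VEC (adjusted p = 0.00920). Its neighbours on the chromosome had a median shift of -0.32, and after subtraction it was at 0.07 (adjusted p = 0.379).

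Among 14 regulators of the family 12 were tested, 2 rose and 2 fell, and the median was 0.02. Of all genes tested, 11.3% were called higher and 14.0% lower. MYC rose to 61.9 ± 1.89 in Q63E, against 43.8 ± 3.88 in VEC (log2 fold change 0.49, adjusted p = 0.00358). E2F1, a cell cycle factor that can induce PMAIP1 and BBC3, fell to 39.1 ± 1.11 in Q63E, against 51.7 ± 0.166 in VEC (log2 fold change -0.39, adjusted p = 0.00101). ATF4, a stress factor that can induce PMAIP1, averaged 451 ± 27.5 in Q63E and 606 ± 18.9 in VEC (log2 fold change -0.43, adjusted p = 0.00206). Its neighbours on chromosome 22 had a median shift of -0.55, and relative to them ATF4 was at 0.12 (adjusted p = 0.138). DYNLL2, a dynein light chain that holds BMF at the cytoskeleton, averaged 11.6 ± 0.218 in Q63E and 8.83 ± 0.215 in VEC (adjusted p = 0.00679), and relative to its neighbours it did not pass (adjusted p = 0.214). FOXO1, a factor that can induce BCL2L11, was below the minimum mean, with values of 0.46, 0.49 and 0.60 in Q63E and 1.08, 1.10 and 1.01 in VEC, and it passed with the minimum lowered to 0.1 (adjusted p = 0.0394).

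Because BAX, BBC3 and PMAIP1 are known to be induced by DNA damage, 15 other genes known to respond to DNA damage were examined. Of these 1 rose and 3 fell, where 11.3% of all genes tested were called higher and 14.0% lower, and their median log2 fold change was -0.18. TNFRSF10B, the death receptor DR5, fell to 44.5, 46.8 and 40.4 in Q63E, against 70.3, 74.9 and 73.8 in VEC (log2 fold change -0.72, adjusted p = 0.000596). Relative to its neighbours, whose median shift was -0.37, its log2 fold change was -0.36 (adjusted p = 0.0198). CDKN1A, the cell cycle inhibitor p21, averaged 13 ± 1.66 in Q63E and 20.8 ± 2.95 in VEC (log2 fold change -0.63, adjusted p = 0.0134), a call lost with the replicate number as a block (adjusted p = 0.0565). GADD45A averaged 136 ± 4.74 in Q63E and 170 ± 10.9 in VEC (adjusted p = 0.00797). FDXR, a mitochondrial reductase, rose to 20.4 ± 0.215 in Q63E, against 16.0 ± 0.155 in VEC (adjusted p = 0.00377), but did not pass relative to its neighbours (adjusted p = 0.194). MDM2 and FAS did not pass. Whether DNA damage differed between the groups was not tested.

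**Figure D5:**
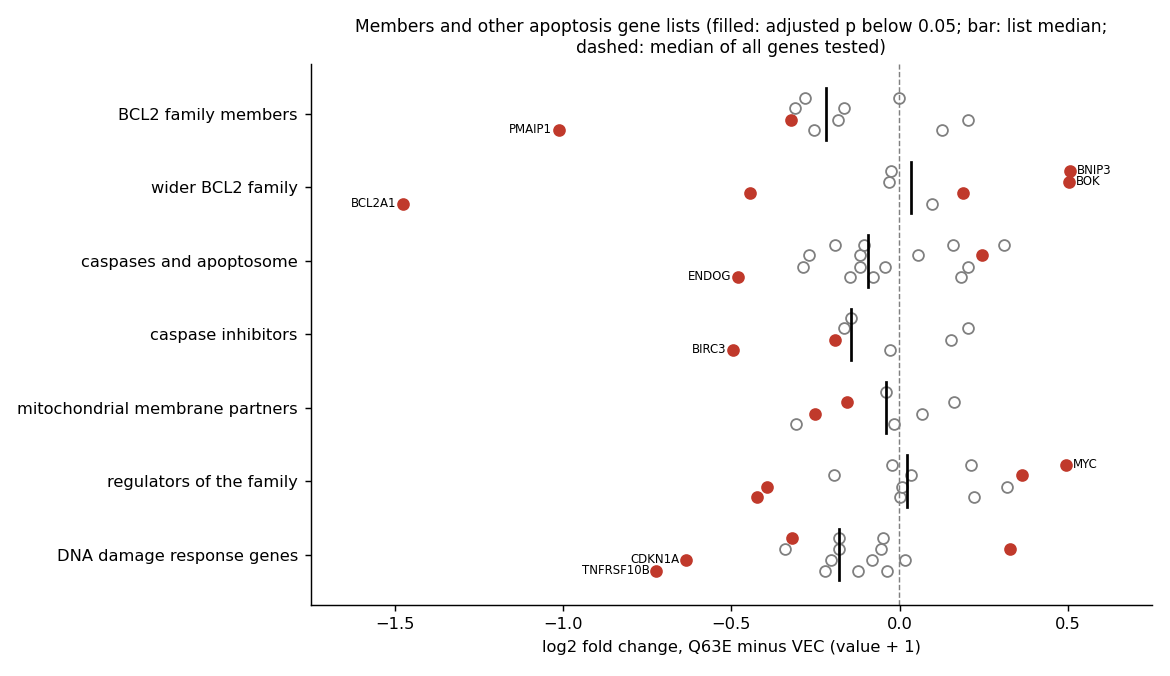
Log2 fold change (Q63E minus VEC, on value + 1) of each tested gene by list, filled where the adjusted p was below 0.05, with the list's median as a vertical bar and the median of all genes tested as a dashed line. PMAIP1 at -1.01 lies far to the left, as does BCL2A1 at -1.48, which reached the minimum mean only through its VEC values. BOK and BNIP3 lie at 0.50.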

How the data were processed

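RNA sequencing of 6 T24 libraries (3 Q63E, 3 VEC) was used as deposited. Per the submitters' processing notes, HISAT2 2.1.0, Bowtie2 and GRCh38.p10 were involved, with no role given, and no source used here gives the counting program, annotation or strand setting. Each row of the tables that the authors deposited holds 1 value, taken as FPKM because totals differ between libraries and the values are not whole. Whole reads were not recovered: at best 27.5% to 31.1% of low values fell within 0.1 of a whole number, against 20% without steps. Values were set on a log2(value + 1) scale, and the 13346 genes averaging 1 or more were tested with limma 3.58.1 (lmFit, eBayes with trend) in R 4.3.3 on group alone. These folds understate changes of low genes. The steps were tested on simulated data. The written design gave limma for such values. Neighbour subtraction took, in each library, the median deviation of the 50 nearest tested genes, 25 on each side. Near a chromosome end, as for BID, the 50 were completed from the other side. Ratios were tested by exact permutation in SciPy 1.17.1.

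Symbols were paired with 57392 of 58233 identifiers, and coordinates are GENCODE 29 on GRCh38. Some results are not reported here. Named genes are the 10 members, RHOC, and from each other list up to 4 passing genes with the largest change, or the 2 with the highest mean where fewer than 2 passed. HRK, FOXO1, BNIP3L and the genes named only as not passing lie outside this rule and were chosen after their values were seen. The members, lists and tests were chosen with earlier results of these data known. No pairing of the libraries by replicate number was seen: deviations of same-numbered libraries correlated at -0.04, -0.0087 and -0.02 across genes, and no pair reached 0.1. A correlation over all genes cannot exclude a batch that is weak or limited to some genes. Alternatives covered pseudocount, filter, scaling, trend, block, neighbours and each library left out.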

Additional observations from a re-analysis of the deposited data

How the results depend on the processing

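PMAIP1 passed as lower in all 16 alternative fits, BAK1 as lower in 11, BCL2L1 as higher in 3 and BID as lower in 1. BAX, BBC3, BCL2, MCL1, BIK and BCL2L11 passed in 0 of them. Over all genes, the replicate block gave 942 higher calls in place of 1510, neighbour subtraction gave 1185 lower calls in place of 1873, and leaving out 1 library gave 992 to 1138 higher calls. The block changed no call on a member. With 3 libraries per group it cannot change a log2 fold change, so the unchanged folds carry no information. The sources do not say that the numbers pair the libraries, and no pairing was seen. Among the members, 1 was higher (BCL2L1) with quantile normalization and with neighbour subtraction, and 0 to 1 with 1 library left out, in place of 0. With no filter 1 was lower, and with 1 library left out 1 to 2 were, in place of 2. Without VEC replicate 2 the members called lower were PMAIP1 and BID, in place of PMAIP1 and BAK1.

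Of the caspases and apoptosome genes 2 passed in the fit reported, against 1 with no filter, 4 with totals scaled alike, 4 with quantile normalization, 1 with the block and 1 to 3 with 1 library left out. Of the caspase inhibitors 2 passed, against 1 with totals scaled alike, 1 with quantile normalization, 1 without trend, 0 with the block and 0 to 1 with 1 library left out. Of the membrane genes 2 passed, against 1 with the block, 1 without trend, 1 with neighbour subtraction and 1 to 2 with 1 library left out. Of the regulators 4 passed, against 2 with neighbour subtraction. The cause of these differences was not tested.

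BCL2L11, at -0.0027, changed sign with pseudocounts of 0.1 (0.0019) and 0.01 (0.0029), with totals scaled alike (0.025), with median-ratio scaling (0.0017) and within its range of -0.084 to 0.14 with 1 library left out. The log2 difference of BCL2 over BAX, 0.0058, ran from -0.14 to 0.10 with 1 library left out, and that of MCL1 over BAX, 0.09, from -0.023 to 0.19. Depth is unknown, so no limit of detection can be given for BIK, BCL2L11 and BCL2, whose values lie near 1 to 3.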

Other observations

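An annotated antisense gene of BCL2L1, ABALON, averaged 1.80 in Q63E and 3.38 in VEC, and another, AL117381.1, averaged 2.72 in Q63E and 0.690 in VEC. Both are low beside BCL2L1, which averaged 112 in Q63E and 102 in VEC.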
